A study of Mus musculus with 6 samples.

Results

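The synaptic vesicle and exocytosis genes are the genes whose products load, dock, prime, fuse and recycle the vesicles that release transmitter and peptide. They were chosen by gene symbol, from a list of 55 names, and all 55 were found among the 35976 genes of the count tables. Libraries depleted of ribosomal RNA were made from cultures of sensory neurons, whose cell bodies sit in the dorsal root ganglia (DRG). The neurons came from the lumbar ganglia of C57BL/6 mice of both sexes and were kept on coverslips coated with poly-d-lysine and laminin, with serum and GDNF. After 24 h on the dish, 3 cultures received vehicle and 3 received HC-HA/PTX3, a hyaluronan and heavy chain complex with pentraxin 3 purified from human amniotic membrane, at 15 µg/mL for a further 24 h. The paper calls the cultures biological replicates, but the labels, which number them 1 to 3 in both groups, do not state whether they came from separate animals, so the p-values measure the spread between these samples, which may be partly technical.

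Total counts ranged from 42516054 to 54117547 in the vehicle cultures and from 37434266 to 38420247 after HC-HA/PTX3. Levels are given in CPM, counts relative to the TMM-scaled library size, and 1 CPM stood for 37.1 to 56.0 counts. A gene with no read could have had up to 0.0808 CPM, the level of 3 counts, which covers counting error only. The 55 genes took 1.253%, 1.04% and 1.28% of the counts in vehicle cultures 1, 2 and 3, and 1.30%, 1.12% and 1.44% in the treated cultures of the same numbers. Culture 2 therefore had the lowest share in each group, and the groups overlapped. All 55 genes passed the filter on low counts and were tested. The treatment change was estimated within same-numbered cultures with edgeR, and a gene was called when its Benjamini-Hochberg adjusted p-value was under 0.05 and its absolute log2 fold change over 0.5.

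At a nerve terminal, vesicle and plasma membrane SNARE proteins zip together and pull the membranes into contact, and calcium sensors of the synaptotagmin family trigger the fusion step. Active zone scaffolds and Rab proteins hold clear vesicles at the release site. Sensory neurons also carry dense core vesicles, in which granins are packed with neuropeptides, and these neurons release peptide from their cell bodies and peripheral endings as well as from central terminals.

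Levels differed widely among the 55 genes. On a scale that allows genes to be compared, CPM per kilobase of exon, the mean level in the vehicle cultures ran from 0.349 for Syt13 to 1045 for Sncg, a ratio of 2989.7. There were 11 genes at 100 or more on this scale, 31 between 10 and 100, and 13 under 10. Sncg, which encodes γ-synuclein, a small protein abundant in sensory neurons, reached 1045 ± 321 per kilobase (SD, n = 3). The neuropeptide precursor gene Vgf followed at 354 ± 8.82, Syt4 at 245 ± 36.4, Scg3 at 241 ± 52.5, Vamp2 at 211 ± 34.5, Snap25 at 204 ± 57.5, Scg2 at 197 ± 9.30 and Cplx1 at 184 ± 52.3 (SD, n = 3 each). From Syt4 to Cplx1 each neighbour in this order lay within the spread of the next. The 11 SNARE genes and their regulators all lay between 12.1 and 211 per kilobase, while the calcium sensors covered 0.349 to 245 and the Rab, active zone and priming genes 2.08 to 78.5.

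**Figure D1:**
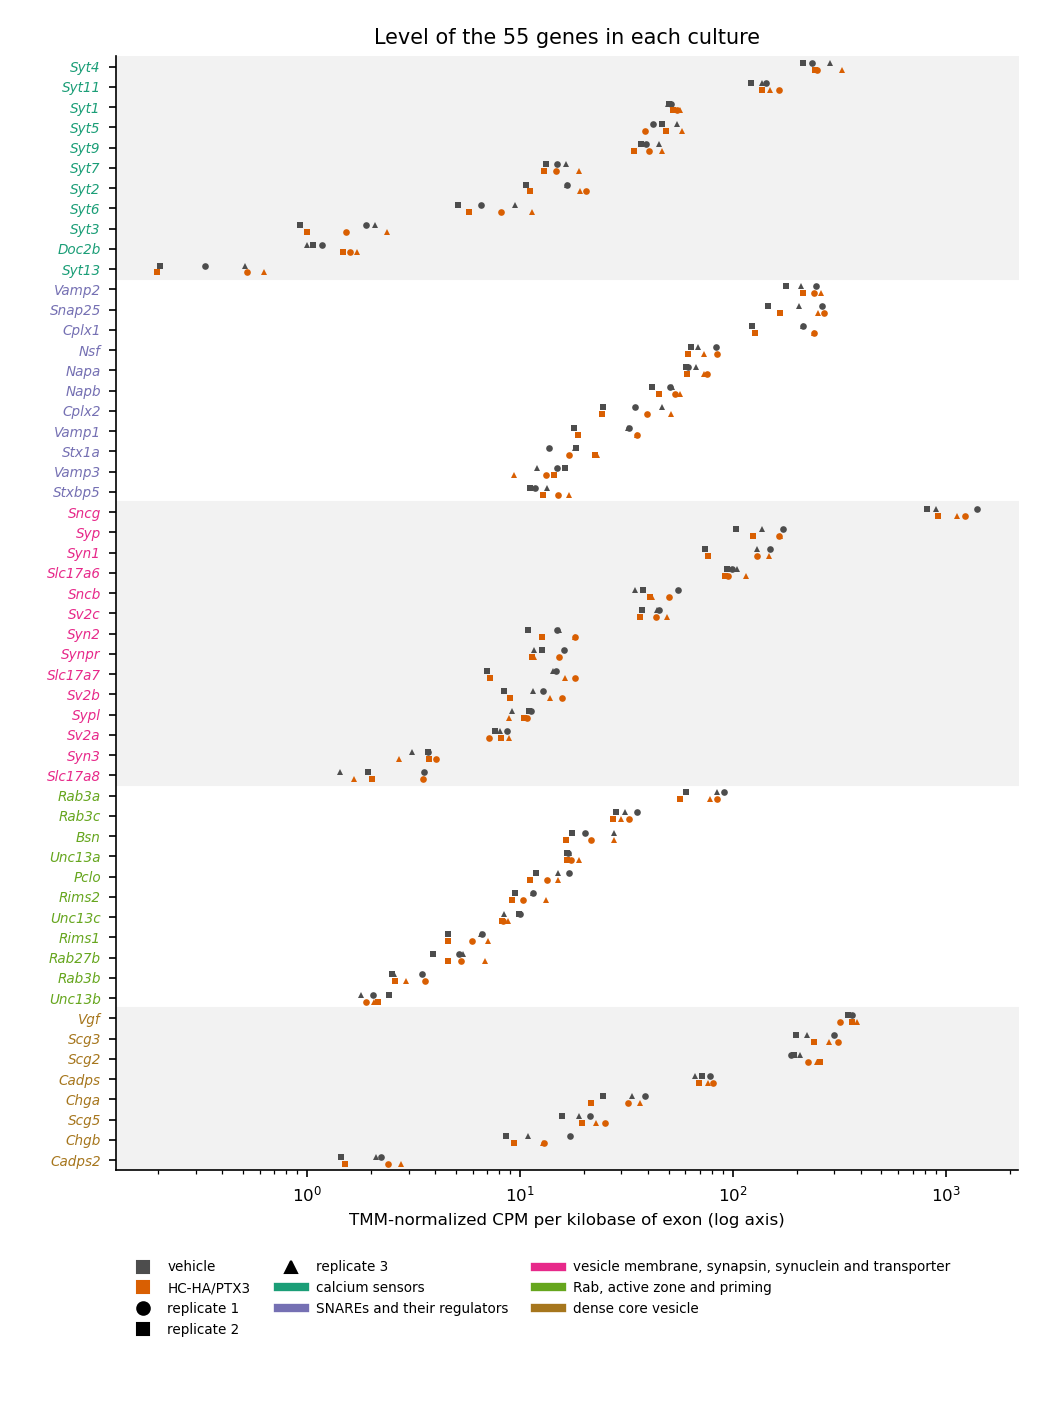
Each point is the level of a gene in 1 culture, in TMM-normalized CPM per kilobase of exon on a log axis, with vehicle in grey, HC-HA/PTX3 in orange and the marker shape giving the replicate number. Genes are grouped by role and ordered by vehicle level, from 1045 for Sncg to 0.349 for Syt13, and the distance between genes is far larger than the distance between the groups.

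HC-HA/PTX3 called 1 of the 55 genes, Doc2b, which was higher, and called 0 lower. Over all 18277 tested genes the same rule called 8.7%, with 3.32% higher and 5.38% lower. Without the fold threshold, 8 of the 55 genes (14.5%) had an adjusted p-value under 0.05, against 19.2% of all tested genes. All 8 were higher, where 7.67% of all tested genes passed as higher and 11.5% as lower. At an unadjusted p-value under 0.05, edgeR gave 17 higher and 1 lower gene, Vamp3, of the 55, and 2657 higher and 3411 lower of all 18277. DESeq2 and limma-voom likewise called 0 of the 55 lower. These counts rested on the pairs: with treatment as the only term edgeR called 0 of the 55 and gave 2 an unadjusted p-value under 0.05. The number of higher genes at an adjusted p-value under 0.05, 8 here, was 0 with treatment as the only term, 5 with DESeq2, 20 after ComBat-seq and 2 with scaling to neuronal markers. ComBat-seq followed by limma also gave 2 lower genes, Vamp3 and Rab3a (adjusted p = 0.0119 and 0.0148). Without the cultures numbered 1, 2 and 3 the number was 7, 1 and 2, of which 2, 1 and 2 were among the 8. These were Scg2 or Stxbp5, and the other 6 of the 8 passed in none of the 3 smaller fits.

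The changes were small and, for most genes, tightly bounded. The median log2 fold change of the 55 genes was 0.09, against -0.01 over all tested genes, with 38 fitted higher and 17 lower. That median was 0.11, 0.10 and 0.04 without the cultures numbered 1, 2 and 3, and 0.03 with scaling to neuronal markers. The 95% confidence interval lay within -0.5 and 0.5 for 53 of the 55 genes (96.4%), compared with 52.1% of all tested genes, and the exceptions were Doc2b and Syt13. Intervals tend to be narrower for genes with more counts, and these shares were not matched for level. In 22 of the 55 genes (40%) the treated culture was the higher of its pair in all 3 pairs, and in 5 (9.09%) it was the lower in all 3. Over all tested genes these shares were 25.6% and 28.4%. The median difference within a pair was 0.04, 0.05 and 0.19 on the log2 scale in pairs 1, 2 and 3. The 3 treated cultures lay wholly above the 3 vehicle cultures for Syt1, Doc2b and Scg2 and wholly below them for 0 of the 55 genes, where 9.43% and 8.57% of all tested genes did so.

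**Figure D2:**
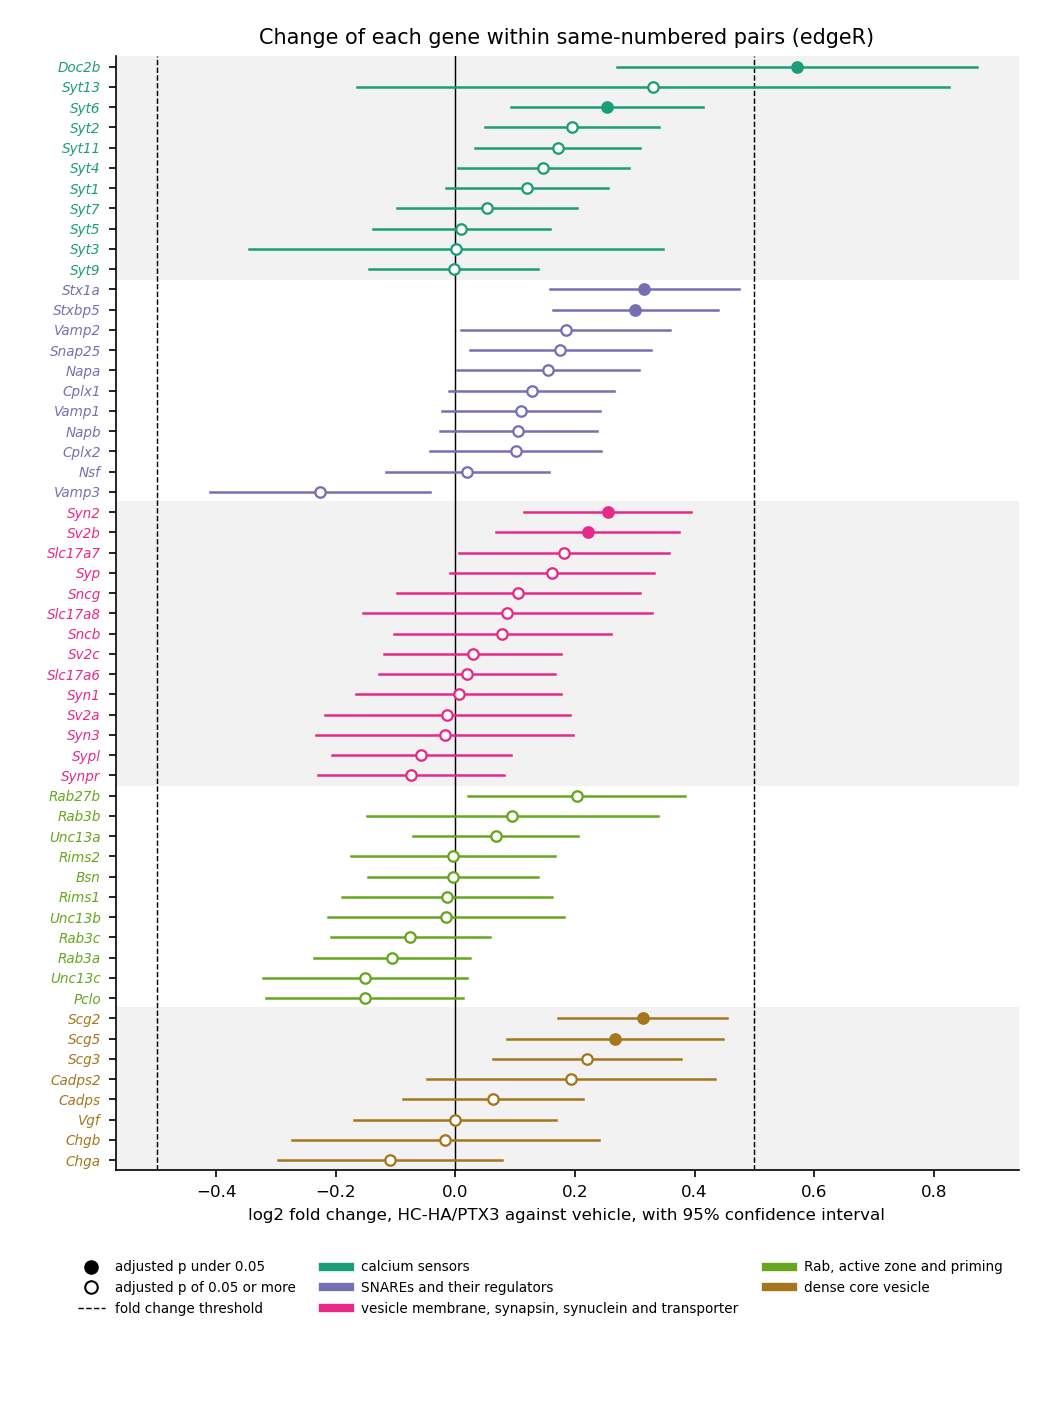
Log2 fold change of HC-HA/PTX3 against vehicle for each of the 55 genes, estimated within same-numbered pairs, with its 95% confidence interval as a bar, filled where the adjusted p-value is under 0.05. Broken lines mark the fold threshold of 0.5, and the estimate for Doc2b, at 0.57, is the sole one beyond it.

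The calcium sensors held the only called gene. Doc2b encodes a soluble protein that binds calcium with high affinity and promotes spontaneous and slow release. It was measured at 5.12, 4.63 and 4.37 CPM in vehicle cultures 1, 2 and 3 and at 6.97, 6.46 and 7.51 CPM in the treated cultures. Every treated culture was above every vehicle culture, and the treated culture was higher in each of the 3 pairs. The log2 fold change was 0.57 (SE 0.14, 95% confidence interval 0.27 to 0.87, edgeR adjusted p = 0.0162). At 199 to 296 counts per library and 1.08 CPM per kilobase it was among the least abundant of the 55 genes. The adjusted p was 0.286 with treatment as the only term, and 0.0673, 0.0573 and 0.0609 without the cultures numbered 1, 2 and 3. Doc2b lies on chromosome 11 of mm10 from 75768966 to 75796049, and 5.53% of its exon bases are shared with Gm12339 on the opposite strand.

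Among the synaptotagmins, Syt6 had an adjusted p-value under 0.05 without reaching the fold threshold. It stood at 37.7, 29.3 and 54.0 CPM in vehicle cultures 1 to 3 and at 46.8, 32.9 and 65.4 CPM after HC-HA/PTX3 (log2 fold change 0.25, SE 0.07, adjusted p = 0.0344). The groups overlapped, because culture 3 was high and culture 2 low in both of them, yet the treated culture was the higher in each pair. Syt1, the fast sensor for synchronous release, varied little, with 248, 241 and 239.9 CPM in the vehicle cultures and 265, 254 and 274 CPM after treatment. Its groups did not overlap, but the log2 fold change of 0.12 had an adjusted p of 0.201. Syt2, a second fast sensor, had a log2 fold change of 0.19 (adjusted p = 0.0629). Syt4 and Syt11, the most abundant synaptotagmins per kilobase and forms that bind calcium weakly or not at all, had 0.15 and 0.17 (adjusted p = 0.1396 and 0.0808). For Syt3, Syt5, Syt7 and Syt9 the log2 fold changes lay between -0.00 and 0.05. Syt13, with 28 to 108 counts per library, was the least precisely measured, at 0.33 (95% confidence interval -0.16 to 0.83).

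Of the 11 SNARE genes and regulators, 10 were fitted higher, 2 with an adjusted p-value under 0.05. Stx1a encodes syntaxin-1A, the plasma membrane SNARE that pairs with SNAP-25. Its level was 29.6, 39.8 and 39.2 CPM in vehicle cultures 1, 2 and 3 and 36.9, 48.5 and 49.8 CPM in the treated ones (log2 fold change 0.32, SE 0.07, adjusted p = 0.0131). Stxbp5 encodes tomosyn, which binds syntaxin and SNAP-25 and holds back SNARE assembly. It was at 108, 103 and 124 CPM with vehicle and 139, 119 and 156 CPM with HC-HA/PTX3 (log2 fold change 0.30, SE 0.06, adjusted p = 0.00878). Both genes were higher in the treated culture of each pair, by 24.4% and 23.5% in the group means, while the groups overlapped.

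For the core neuronal SNARE genes the estimate was smaller than the range of the replicate means. Snap25 had a log2 fold change of 0.18 (adjusted p = 0.0988), Vamp2, the main vesicle SNARE, 0.18 (adjusted p = 0.131), and Vamp1 0.11 (adjusted p = 0.227). The complexins Cplx1 and Cplx2, which clamp and then assist the assembled SNARE complex, had 0.13 and 0.10. The genes that take the spent complex apart gave 0.16 for Napa, 0.11 for Napb and 0.02 for the ATPase Nsf, with adjusted p-values of 0.143 to 0.857. Vamp3, a vesicle SNARE of constitutive traffic found in many cell types, was the member with the lowest estimate, -0.23 (SE 0.08, adjusted p = 0.0832). It was measured at 31.5, 34.5 and 25.5 CPM in the vehicle cultures and 28.2, 30.7 and 19.9 CPM in the treated ones, lower in each pair, with overlapping groups.

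The vesicle membrane group comprised 14 genes, with 10 fitted higher, 4 lower and a median log2 fold change of 0.05. Syn2 encodes a synapsin, one of the proteins that tether reserve vesicles to each other and to actin. It was at 74.9, 54.8 and 76.9 CPM in vehicle cultures 1, 2 and 3 and at 91.5, 63.9 and 91.5 CPM after HC-HA/PTX3 (log2 fold change 0.25, SE 0.06, adjusted p = 0.0190). Sv2b, a vesicle glycoprotein of the transporter superfamily, went from 76.0, 49.8 and 67.9 CPM to 93.1, 53.1 and 82.2 CPM (log2 fold change 0.22, SE 0.07, adjusted p = 0.0477). Both were lowest in culture 2 of either group and higher in the treated culture of each pair, and their groups overlapped. Their close relatives had smaller estimates, with 0.01 for Syn1 and -0.02 for Syn3, and -0.01 for Sv2a and 0.03 for Sv2c. The differences between relatives were not tested.

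Glutamate is loaded into vesicles by transporters of which Slc17a6 (VGLUT2) had the highest level here, at 99.3 ± 5.25 CPM per kilobase (SD, n = 3 vehicle cultures). It was measured at 412, 388 and 432 CPM with vehicle and 393, 381 and 479 CPM with HC-HA/PTX3, a log2 fold change of 0.02 (95% confidence interval -0.13 to 0.17). Slc17a7 (VGLUT1) and Slc17a8 (VGLUT3) stood at 12.0 and 2.30 CPM per kilobase, with log2 fold changes of 0.18 and 0.09 (adjusted p = 0.139 and 0.625). The membrane proteins Syp, Sypl and Synpr, synaptophysin and its relatives, gave 0.16, -0.06 and -0.07. The synuclein genes Sncb and Sncg gave 0.08 and 0.11, and all of these had adjusted p-values of 0.172 to 0.5998. Of the exon bases of Syp, 33.8% are shared with Gm14703 on the opposite strand, and reads from the 2 genes cannot be told apart without strand.

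Of the Rab, active zone and priming genes, 3 were fitted higher and 8 lower, with 0 of 11 at an adjusted p-value under 0.05. Their median log2 fold change was -0.014, against -0.007 over all tested genes. DESeq2 and limma-voom gave 0 of the 11 too, ComBat-seq followed by limma gave Rab27b as higher (adjusted p = 0.0211) and Rab3a as lower (adjusted p = 0.0148), and edgeR gave 1, Rab27b, an unadjusted p-value under 0.05. The lowest estimates were -0.15 for Pclo and for Unc13c, -0.11 for Rab3a and -0.08 for Rab3c (adjusted p = 0.183, 0.201, 0.2404 and 0.416). Pclo encodes piccolo, a giant scaffold of the release site, and was measured at 376, 264 and 334 CPM with vehicle and 296, 246 and 333 CPM with HC-HA/PTX3. Rab3a encodes the small GTPase of docked vesicles and went from 162, 108 and 151 CPM to 151, 101 and 139 CPM. Both were lower in every pair, by less than the cultures of a group differed. The scaffold gene Bsn and the RIM genes Rims1 and Rims2 lay between -0.01 and -0.00, and the priming genes Unc13a and Unc13b at 0.07 and -0.02. Rab27b and Rab3b had 0.20 and 0.10 (adjusted p = 0.113 and 0.590).

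Of the 8 dense core vesicle genes, Scg2 had the smallest adjusted p-value among all 55. It encodes secretogranin II, a granin that is stored with neuropeptides and cut into the peptide secretoneurin. Its level was 475, 488 and 520.2 CPM in vehicle cultures 1, 2 and 3 and 571, 644 and 628 CPM in the treated ones (log2 fold change 0.31, SE 0.06, 95% confidence interval 0.17 to 0.45, adjusted p = 0.00809). Every treated culture exceeded every vehicle culture, and the group means differed by 24.3%. The adjusted p was 0.309 with treatment as the only term, and without the cultures numbered 2 it was 0.0926. Scg5, a chaperone of the peptide-cutting enzyme Pcsk2, was at 25.9, 19.1 and 23.0 CPM with vehicle and 30.5, 23.6 and 27.7 CPM with HC-HA/PTX3 (log2 fold change 0.27, SE 0.08, adjusted p = 0.0440). It was higher in each pair, with overlapping groups.

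Scg3, which helps to sort granins into vesicles, was higher in each pair, with a log2 fold change of 0.22 (adjusted p = 0.0537). Its adjusted p was under 0.05 with limma-voom, ComBat-seq, upper-quartile scaling, all genes of at least 1 count and without the cultures numbered 1 (0.00627 to 0.0394). It was 0.05 or more with treatment as the only term, DESeq2, at least 10 counts in every culture, neuronal scaling and without the cultures numbered 2 or 3 (0.0540 to 0.725). Chga and Chgb, the chromogranins, had -0.11 and -0.02 (adjusted p = 0.401 and 0.939), and differences between the granins were not tested. Vgf was at 1075, 1032 and 1028 CPM with vehicle and 941, 1071 and 1129 CPM after treatment, so the treated cultures lay on both sides of the vehicle cultures. Its log2 fold change was -0.00, with a 95% confidence interval of -0.17 to 0.17. The priming genes of dense core vesicles, Cadps and Cadps2, gave 0.06 and 0.19 (adjusted p = 0.565 and 0.244).

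**Figure D3:**
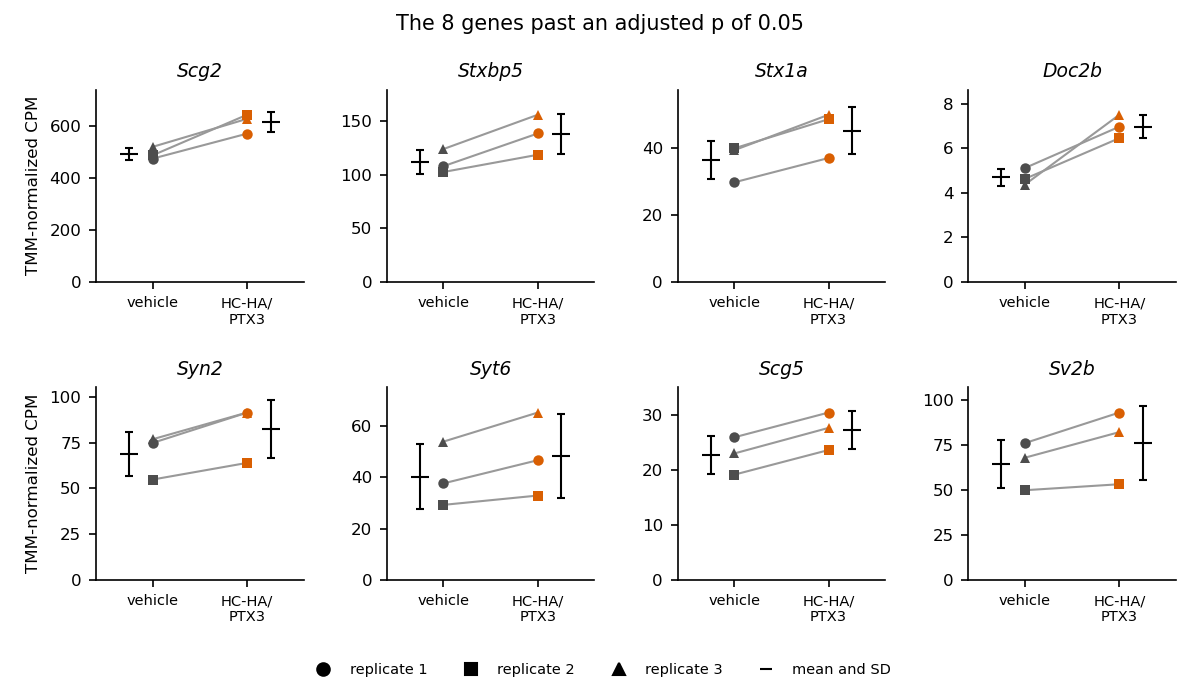
Level in TMM-normalized CPM of the 8 genes with an adjusted p-value under 0.05, with a grey line joining the vehicle and HC-HA/PTX3 cultures of the same number and a horizontal tick with bars for the group mean and SD (n = 3). All lines go up, but apart from Doc2b and Scg2 the groups overlap, as for Syt6, at 29.3 to 54.0 with vehicle and 32.9 to 65.4 with treatment.

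Several granin genes are known to carry a cAMP response element, the site of CREB, close to their start. The letters TGACGTCA and their first 5, TGACG, were therefore searched on both strands in promoters of 250 bases before to 50 bases after each start, taken from RefSeq on GRCm38.p6, the build also named mm10. Of the 55 genes 43 had a promoter entry, and the full 8 letters, which include the short form, were found in 4 of the 43 (9.30%) against 2.03% of the 27025 genes with an entry. The short form was in 17 (39.5%) against 23.1%. Among the dense core vesicle genes the full letters were in 2 of 7 and the short form in 5 of 7. The remaining gene of that group, Vgf, had no promoter entry and was not searched. The stretches around the full motif are shown for both granins that hold it and for Syn1, as examples of the match, with the motif in capitals. They lie at chr1:79440051-79440130 (minus strand) for Scg2, chr2:132781534-132781613 (plus strand) for Chgb and chrX:20921034-20921113 (minus strand) for Syn1.
Scg2: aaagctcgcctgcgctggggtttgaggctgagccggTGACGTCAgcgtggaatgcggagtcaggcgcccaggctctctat
Chgb: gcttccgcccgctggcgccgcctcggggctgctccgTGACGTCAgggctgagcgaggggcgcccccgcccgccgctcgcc
Syn1: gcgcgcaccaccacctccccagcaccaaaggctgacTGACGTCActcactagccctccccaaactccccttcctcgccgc

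The motif begins at position -68 from the RefSeq start in Scg2, -72 in Chgb and -159 in Syn1, and in Napa, the fourth gene with it, at -7. The log2 fold changes of these genes were 0.31, -0.02, 0.01 and 0.16, of which the value for Scg2 alone had an adjusted p-value under 0.05. The letters were thus present in genes with different estimates, and the matches are a description of sequence.

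The 55 genes differed more by replicate number than by treatment. A test of the replicate terms in the same edgeR fit gave 42 of the 55 (76.4%) an adjusted p-value under 0.05, where 33.8% of all tested genes passed. The count was 12 of 14 for the vesicle membrane genes, 9 of 11 for the SNARE genes, 8 of 11 for the calcium sensors, 8 of 11 for the Rab and active zone genes and 5 of 8 for the dense core genes. Culture 2 was the lowest of the 3 in both groups for 39 of the 55 (70.9%), compared with 17.6% of all tested genes. Culture 3 was so for 4 genes (7.27%, against 27.9% of all tested genes), Vamp3, Syn3, Sypl and Slc17a8, and culture 1 for 3 (5.45%, against 16.9%), Syt5, Stx1a and Scg2. These genes were singled out after their values were seen, and the replicate numbers have no order.

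Some of the larger differences are given here, for genes chosen after their values were seen. Slc17a7 was at 44.1, 21.0 and 42.6 CPM in vehicle cultures 1, 2 and 3 and at 54.3, 21.6 and 48.8 CPM in the treated ones, and culture 2 was lower than culture 1 by a log2 difference of -1.20 (adjusted p of the replicate terms 2.29e-05). Vamp1, the vesicle SNARE of many fast synapses, was at 134, 73.5 and 132 CPM with vehicle and 146, 77.2 and 145 CPM with HC-HA/PTX3, a difference of -0.89. Cplx1 gave -0.85, Syn1 -0.88, Snap25 -0.76 and Syt2 -0.76 for the same difference, as did the scarce Syt13 with -1.01 and Syt3 with -0.80. Slc17a8 had another pattern, with 16.7, 9.14 and 6.73 CPM in the vehicle cultures and 16.6, 9.57 and 7.84 CPM in the treated ones, highest in culture 1 of each group. In 13 genes the replicate terms had an adjusted p-value of 0.05 or more, among them Syt1, Doc2b, Unc13a, Scg2 and Vgf, and the replicate means of Unc13a, for example, ranged over 0.11 on the log2 scale.

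**Figure D4:**
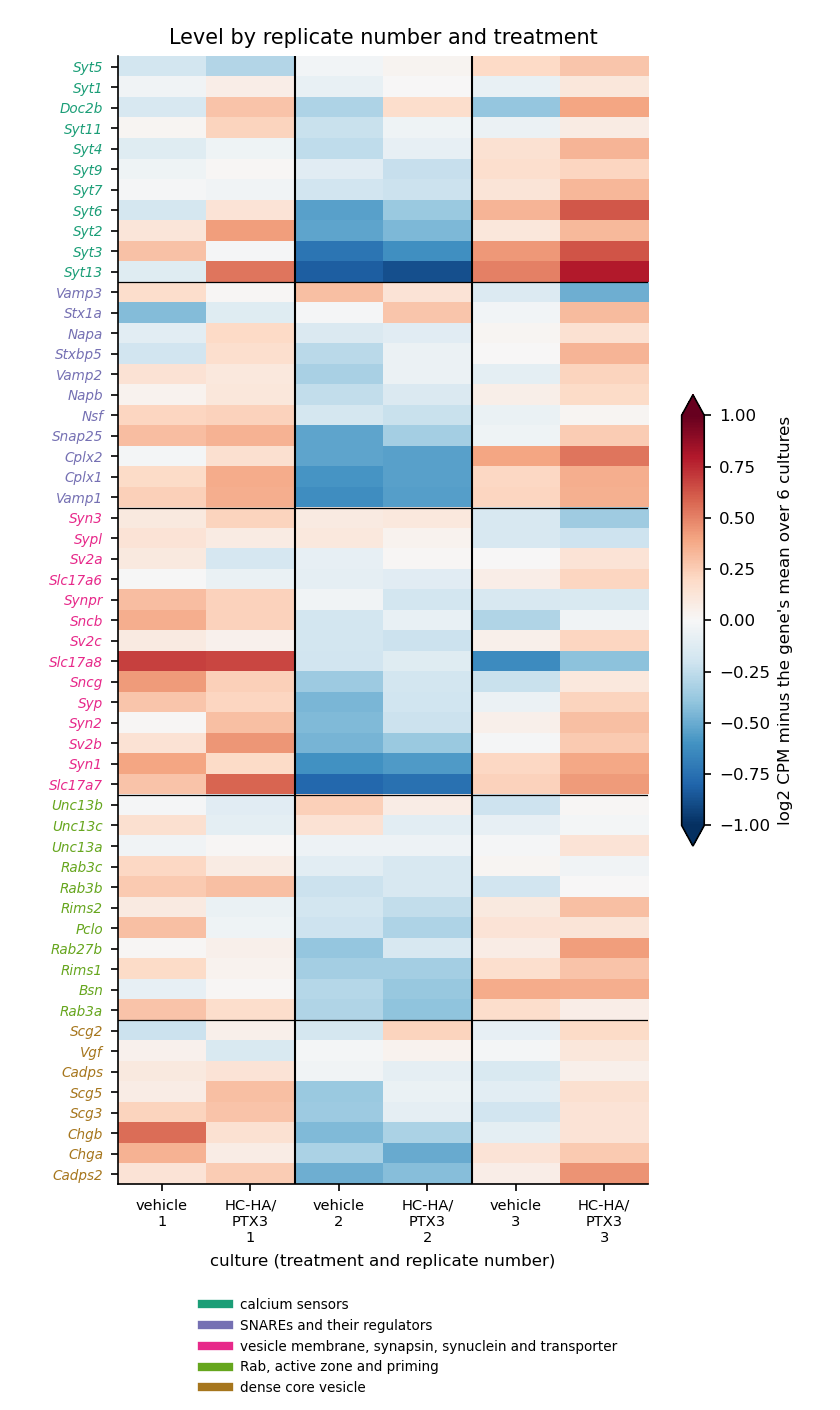
Log2 CPM of each of the 55 genes in the 6 cultures, minus the mean of the gene over the cultures, with blue for lower and red for higher values and the same-numbered cultures side by side. Culture 2 is the lowest in both groups for 39 of the 55 genes, and within most pairs vehicle and HC-HA/PTX3 have like colours.

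Markers of cell types were read in the same cultures. In bulk RNA, fewer cells of a type and less RNA per cell cannot be told apart. All 12 pan-neuronal markers were present, and their summed level was 21047, 15910 and 16236 CPM in vehicle cultures 1, 2 and 3 and 20008.5, 16466 and 17951 CPM in the treated ones, with 0 of 12 called and a median log2 fold change of 0.04. DESeq2, limma-voom and ComBat-seq followed by limma also called 0 of 12, and edgeR gave 4 an unadjusted p-value under 0.05. Map1b had the highest CPM of them and Uchl1 the highest level per kilobase, 726, while the neuronal tubulin Tubb3 stood at 1295, 1196 and 1155 CPM with vehicle. Below the fold threshold, Uchl1 was higher, without overlap of the groups (log2 fold change 0.32, adjusted p = 0.00853), and Elavl4 was lower (-0.28, adjusted p = 0.0404), both named after their values were seen. In the lists below, the gene named as most abundant led on both scales. The neuron label of the cultures thus had its defining markers at high levels, in company with markers of other cells.

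Several marker lists moved with the replicate number. The 5 markers of large myelinated neurons summed to 2079, 1750 and 1499 CPM with vehicle and 2055, 1831 and 1643 CPM with HC-HA/PTX3, of which Spp1 was the most abundant, with 0 of 5 called and 2 at an unadjusted p-value under 0.05 in edgeR. Below the fold threshold, Pvalb, named after its values were seen, was higher in each pair (0.34, adjusted p = 0.0436), and its groups overlapped. The first marker of this list, the heavy neurofilament gene Nefh, was at 945, 467 and 585 CPM in the vehicle cultures and 839, 545 and 761 CPM in the treated ones, lowest in culture 2 of both groups. Pvalb and Ntrk3 were also lowest there. Spp1 was instead highest in culture 2, at 761, 1014 and 686 CPM with vehicle and 816, 1024 and 609 CPM with HC-HA/PTX3. Ntrk2 was lowest in culture 3, at 142, 110 and 51.5 CPM and 136, 96.6 and 56.1 CPM. The list thus had no single order of the cultures, and Ntrk3 and Ntrk2 were named after their values were seen. The 6 satellite glia markers summed to 1906, 1026 and 394 CPM and 1805, 1045 and 420.2 CPM, with 0 of 6 called, 4 at an unadjusted p-value under 0.05, Apoe the most abundant and Fabp7 at 73.9, 37.9 and 4.55 CPM with vehicle and 49.7, 29.9 and 4.01 CPM with HC-HA/PTX3. Below the fold threshold, 3 of the 6 had an adjusted p-value under 0.05 for treatment: Fabp7 (-0.40, adjusted p = 0.0154), Kcnj10 (-0.34, adjusted p = 0.0108) and Glul (0.28, adjusted p = 0.0198), the last 2 named after their values were seen. DESeq2, limma-voom and ComBat-seq followed by limma also called 0 of the large myelinated and 0 of the satellite glia markers. The part of these cells in the replicate differences of the 55 genes was not tested.

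Other lists moved with the treatment. The 6 fibroblast markers summed to 2137, 2151 and 894 CPM with vehicle and 1151, 1381 and 303 CPM with HC-HA/PTX3, with 3 of 6 called lower, Col3a1 the most abundant and Col1a1 at a log2 fold change of -1.62. The called genes were the collagens Col1a1, Col1a2 and Col3a1. The other markers of the list were not called: Dcn (-0.09, edgeR adjusted p = 0.327), Lum (-0.31, adjusted p = 0.185) and Pdgfra (-0.25, adjusted p = 0.0717). Col1a2 and these markers were named after their values were seen. The 4 markers of dividing cells summed to 623, 423 and 187 CPM and 206, 209 and 31.5 CPM, and all 4 were called lower, Mki67, the most abundant, by -1.72. Among the nociceptor markers, Tac1, the substance P precursor, rose with a log2 fold change of 1.005 and Mrgprd with 0.62, each the 1 called gene of its list of 4. Gfra2, in the same list as Mrgprd and named after its values were seen, was lower, without overlap of the groups (-0.34, adjusted p = 0.0466), and the median of that list was -0.03. The peptidergic list summed to 717, 746 and 758 CPM and 1011, 875 and 828 CPM, with Calca the most abundant, and the non-peptidergic list to 395, 360.2 and 537 CPM and 419.98, 345 and 559.7 CPM, with P2rx3 the most abundant. Macrophage and endothelial lists, led by Lyz2 and Cdh5, had 0 of 6 and 0 of 5 called in edgeR, with 2 and 0 at an unadjusted p-value under 0.05. DESeq2 and limma-voom also called 0 in both, and ComBat-seq called 1 macrophage marker. Dbh and Pnmt, defining markers of chromaffin cells, which share much of the dense core machinery, were at or below 0.163 CPM in every culture. Th, the remaining gene of that list and also a gene of some sensory neurons, was at 12.1, 11.2 and 24.4 CPM with vehicle and 19.5, 15.0 and 28.8 CPM with HC-HA/PTX3. It was higher in each pair (0.44, adjusted p = 0.0172), and the groups overlapped. The part of these cells in the treatment changes of the 55 genes was not tested. Scaling to the pan-neuronal markers shifts all genes alike and so does not test this part. With that scaling, Scg2 and Doc2b had an adjusted p-value under 0.05 in edgeR. The log2 fold change of Doc2b was then 0.51, and the median of the 55 genes was 0.03.

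**Figure D5:**
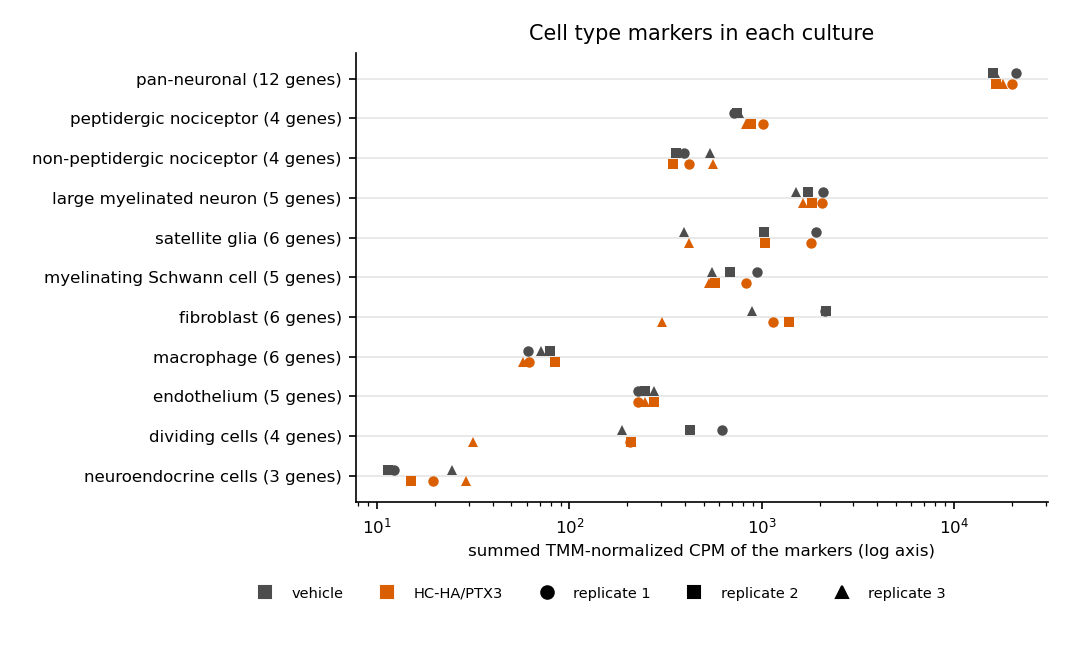
Summed TMM-normalized CPM of the markers of each cell type in each culture, on a log axis, with vehicle in grey, HC-HA/PTX3 in orange and the marker shape giving the replicate number. Satellite glia markers differ between the numbers, from 1906 to 394 with vehicle. The sums of the fibroblast, dividing cell and myelinating Schwann cell markers also lie lower in the treated culture of each pair.

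Beyond the 55 genes, 92 further genes of docking, fusion, retrieval and peptide loading were read from a list chosen by function, of which 84 were tested. HC-HA/PTX3 called 2 of the 84 higher and 0 lower, and without the fold threshold 12 were higher and 5 lower at an adjusted p-value under 0.05. Over all tested genes 3.32% were called higher and 5.38% lower, and without the fold threshold 19.2% passed, against 20.2% of the 84. Their median log2 fold change was 0.01. DESeq2 and limma-voom also called 0 of the 84 lower, ComBat-seq followed by limma called 1, and edgeR gave 20 higher and 12 lower of the 84 at an unadjusted p-value under 0.05, against 2657 and 3411 of all 18277. Stx4a encodes syntaxin-4, a plasma membrane SNARE outside the active zone, and was measured at 30.9, 32.8 and 24.8 CPM with vehicle and 42.8, 47.7 and 37.5 CPM with HC-HA/PTX3. Every treated culture was above every vehicle culture, and its log2 fold change was 0.54 (SE 0.07, adjusted p = 0.00155). Syt17, a synaptotagmin relative with low counts, went from 0.898, 0.675 and 0.964 CPM to 1.64, 1.11 and 1.73 CPM, also without overlap (log2 fold change 0.81, SE 0.22, adjusted p = 0.0309). With treatment as the only term the adjusted p-values were 0.286 and 0.351 and 0 were called, while DESeq2, scaling to neuronal markers and the fit without the cultures numbered 1 called 1 each.

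Among the genes below the fold threshold, 3 of dense core vesicles and the 5 lower ones are named here, chosen after their values were seen. Pcsk1n, an inhibitor of the peptide-cutting enzyme Pcsk1, had a log2 fold change of 0.34 (adjusted p = 0.00461). Cpe, which trims the cut peptides, had 0.27 (adjusted p = 0.0130), and Ptprn, a membrane protein of these vesicles, 0.30 (adjusted p = 0.00741). Each was higher in the treated culture of all 3 pairs, by 20.6% to 26.3% in the group means. The lower ones were Apba2 (-0.36), Ica1 (-0.43), Rimbp2 (-0.40), Amph (-0.23) and Itsn1 (-0.21), of which Rimbp2 encodes an active zone protein that links calcium channels to RIM, and Amph and Itsn1 act in vesicle retrieval.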

How the data were processed

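The values are raw counts that the authors made and deposited, 1 library per culture, from reads aligned to mm10. The methods and the submitters' processing notes name HISAT2 and featureCounts of Subread, whereas the file headers name STAR, and the strand setting is not given in the sources used here. Without strand, reads of overlapping genes cannot be told apart: 13 of the 55 genes share exon bases with another gene, Syp and Syt4 over 10% of them. Gene positions and exon lengths are those of GENCODE M21 on mm10, joined on gene symbols.

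All fits ran in R 4.3.3, the tests in edgeR 4.0.16 (TMM, filterByExpr, glmQLFit and glmQLFTest, replicate number as a block), limma 3.58.1, DESeq2 1.42.0 and sva 3.50.0. P-values were adjusted over all 18277 tested genes. Exact permutation tests of 3 against 3 cannot go below p = 0.1 and were not used. Log2 differences within pairs used a prior count of 2. The block follows the batch term of the methods. The labels number the cultures alike in both groups without saying what a number marks, so the pairing was checked: deviations from the group means correlated across tested genes at 0.631, 0.536 and 0.774 for same-numbered cultures, all over the limit of 0.1, and at -0.613 to 0.148 otherwise. Across the 55 genes, which are not independent replicates, these were 0.729, 0.936 and 0.906, and -0.690 to -0.130. No libraries of a group were duplicates (chi-square per degree of freedom 31.4 or more).

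Named genes are the 55 members by role, the called genes of the wider list, and for each marker list its first and most abundant gene, with exceptions named as such. The members and lists were chosen with earlier results of these data known. Alternatives were no block, DESeq2, limma-voom, ComBat-seq on the replicate number followed by limma, 2 other filters, upper-quartile scaling, scaling to pan-neuronal markers, no fold threshold, and each replicate number left out. The tests were checked on simulated counts with planted changes.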

Additional observations from a re-analysis of the deposited data

How the results depend on the processing

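With treatment as the only term (no replicate block), which ignores the pairing, 0 of the 55 genes, 0 of all tested genes and 0 of the wider list were called, against 1, 1591 and 2 with the block, and 0 of the 55 genes were higher at an adjusted p-value under 0.05 at any fold. Doc2b was the sole called gene under DESeq2, limma-voom, ComBat-seq followed by limma, both other filters, upper-quartile scaling and scaling to neuronal markers, and 0 of the 55 were lower in all of them. Leaving out both cultures of a number gave 0 called of the 55 each time, 878 to 1571 of all tested genes and 1 to 2 higher genes of the wider list, with fewer samples. Doc2b then had log2 fold changes of 0.48 to 0.64. Without the fold threshold 8 of the 55, 3505 of all genes and 12 higher and 5 lower genes of the wider list passed. The wider list had 1 higher gene with DESeq2, 1 with neuronal scaling, and 1 lower after ComBat-seq. In settings chosen after seeing the data, the number of the 55 that were higher at an adjusted p-value under 0.05 at any fold, 8 with the block, was 5 with DESeq2, 20 after ComBat-seq, with 2 lower, Vamp3 and Rab3a, 2 with neuronal scaling and 1 to 7 with a number left out, of which 1 to 2 were among the 8. The median of the 55 ran from 0.03 to 0.12, above that of all tested genes in each setting. The 42 genes with a difference between replicate numbers became 44 with all genes of at least 1 count, 39 with upper-quartile scaling and 44 with limma-voom. Among the 55 genes, levels without length were not used for comparison and that alternative was not run. The cause was not tested for any of these changes.

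Estimates near 0 changed sign, all with adjusted p-values of 0.293 or more. Without the block the log2 fold change was 0.0033 for Syt9, -0.00043 for Syn1, 0.0064 for Rims2, 0.00035 for Bsn and 0.0032 for Vgf. DESeq2 gave -0.0039 for Syt3. Limma-voom gave 0.00056 for Rims2 and 0.00024 for Vgf. ComBat-seq gave 0.0012 for Syn3, 0.0035 for Sv2a, 0.0031 for Chgb and 0.012 for Vgf. With all genes of at least 1 count, Syt3 had -0.019, Syt5 -0.0079 and Syn1 -0.012. With at least 10 counts in every culture, Syt9 had 0.0018, Rims2 5.6e-06 and Vgf 0.0038. Upper-quartile scaling gave 0.029 for Syt9, 0.014 for Syn3, 0.018 for Sv2a, 0.018 for Rims1, 0.028 for Rims2, 0.027 for Bsn, 0.016 for Unc13b, 0.015 for Chgb and 0.031 for Vgf. Neuronal scaling gave -0.058 for Syt3, -0.048 for Syt5, -0.0049 for Syt7, -0.037 for Nsf, -0.051 for Syn1, -0.029 for Sv2c and -0.038 for Slc17a6.

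With 1 replicate number left out, the log2 fold changes ran from -0.072 to 0.11 for Sv2a, -0.065 to 0.060 for Rims1, -0.092 to 0.073 for Rims2, -0.12 to 0.055 for Unc13b, -0.13 to 0.18 for Chgb, -0.053 to 0.097 for Vgf, -0.10 to 0.16 for Syt3, -0.018 to 0.073 for Syt5, -0.0071 to 0.093 for Syt7, -0.031 to 0.049 for Syt9, -0.066 to 0.11 for Syn1, -0.084 to 0.084 for Syn3, -0.050 to 0.038 for Bsn, -0.023 to 0.069 for Sv2c and -0.030 to 0.064 for Slc17a6.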
